A study of Mus musculus with 24 samples.

Results

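The 10 genes described here carry glucose into cells (Slc2a1), run steps of glycolysis (Hk1, Hk2, Pfkm, Pgk1 and Pkm), interconvert pyruvate and lactate (Ldha and Ldhb) and move lactate across membranes (Slc16a1 and Slc16a8). They were picked by gene symbol, 10 of the 56748 genes in the deposited table, and each symbol matched 1 gene. RNA sequencing had been done on the neural retina and on the remaining eye cup (RPE, choroid and sclera) of 12 mice, so that each mouse gave 1 library of each tissue. PRDM13-OE mice carried 1 copy, at Rosa26, of a cassette with human PRDM13 behind the dox-responsive TRE3G promoter and with the rtTA activator behind the widely active EF-1α promoter, so induction was not limited to 1 cell type. Their controls were wildtype littermates, and both genotypes were on a C57BL/6J background. The 4 groups were untreated wildtype, untreated PRDM13-OE, wildtype with dox and PRDM13-OE with dox, with 3 mice in each. Dox was given for 72 hours from P28, at 2 mg/mL in drinking water that also held 10% sucrose. Both came in the same water and what the untreated groups drank is not given in the sources used here, so for these glucose metabolism genes dox and sucrose cannot be told apart. Male and female animals were used.

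Rod and cone photoreceptors take up large amounts of glucose and turn much of it into lactate even where oxygen is present, a habit called aerobic glycolysis. Glucose reaches them from the choroid through the RPE, the pigmented epithelium behind the retina, which carries the transporter GLUT1 (Slc2a1). Lactate leaves through proton-coupled monocarboxylate transporters, of which MCT1 (Slc16a1) is widespread and MCT3 (Slc16a8) sits on the choroidal face of the RPE. Hexokinases trap glucose inside the cell, phosphoglycerate kinase and pyruvate kinase make ATP in the lower part of the pathway, and the LDHA and LDHB subunits assemble into lactate dehydrogenases that favor lactate and pyruvate, respectively.

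Between 15825059 and 24908314 reads were counted on genes per library. In the retinas, the summed level of 14 RPE markers was 333 to 764 CPM (read counts scaled to library size with edgeR's TMM factors over the 12 libraries of a tissue), and it was highest in untreated PRDM13-OE retina 1. The eye cups held RPE transcripts at 8578 to 55999 CPM, and they also held transcripts of 14 rod markers at 3879 to 51454 CPM. Wildtype retinas 1 and 2 with dox stood apart by their lens transcripts, which summed to 11903 and 4917 CPM, compared with at most 945 CPM in the other 10 retinas. PRDM13-OE mice with dox stood apart by 5 red blood cell genes, which summed to 0.709 to 1.18 CPM in their retinas and 12.4 to 14.3 CPM in their eye cups, compared with 21.6 to 77.8 CPM and 238 to 3459 CPM in the other groups. The induced transgene is human, and the mouse gene Prdm13, which is no check of it, was at 52.8 to 60.3 CPM in PRDM13-OE and 46.7 to 50.9 CPM in wildtype retinas with dox. In bulk tissue, fewer cells of a type and less RNA per cell cannot be told apart.

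On GRCm39, the deposited table places the uptake and hexokinase genes as Slc2a1 at chr4:118965908-118995180 (plus strand), Hk1 at chr10:62104634-62215687 (minus strand) and Hk2 at chr6:82702006-82751435 (minus strand). The remaining glycolytic genes are Pfkm at chr15:97990470-98030332 (plus strand), Pgk1 at chrX:105230706-105247305 (plus strand) and Pkm at chr9:59563651-59586658 (plus strand). The lactate genes are Ldha at chr7:46490899-46505051 (plus strand), Ldhb at chr6:142435975-142453683 (minus strand), Slc16a1 at chr3:104545984-104565778 (plus strand) and Slc16a8 at chr15:79135214-79138961 (minus strand). All 10 are protein-coding, and each overlaps the gene of the same identifier in GENCODE vM39. The 200 bases before the start of the canonical transcript are shown for 3 of them, Ldha and Pgk1 because they fell together in PRDM13-OE retinas with dox, and Slc16a8 because it differed most between the tissues. They are written 5′ to 3′ on the strand of the gene, with every match to the letters ACGTG, the core of sites bound by hypoxia-inducible factors, in capitals on either strand.

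Ldha, chr7:46495063-46495262: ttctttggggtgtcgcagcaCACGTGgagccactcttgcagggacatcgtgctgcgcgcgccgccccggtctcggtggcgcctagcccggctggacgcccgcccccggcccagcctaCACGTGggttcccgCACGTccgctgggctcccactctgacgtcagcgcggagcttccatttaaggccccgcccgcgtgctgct

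Pgk1, chrX:105230506-105230705: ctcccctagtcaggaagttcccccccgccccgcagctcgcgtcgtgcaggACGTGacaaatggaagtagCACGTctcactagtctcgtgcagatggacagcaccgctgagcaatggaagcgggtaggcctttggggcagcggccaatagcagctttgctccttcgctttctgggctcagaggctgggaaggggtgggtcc

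Slc16a8, chr15:79138965-79139164: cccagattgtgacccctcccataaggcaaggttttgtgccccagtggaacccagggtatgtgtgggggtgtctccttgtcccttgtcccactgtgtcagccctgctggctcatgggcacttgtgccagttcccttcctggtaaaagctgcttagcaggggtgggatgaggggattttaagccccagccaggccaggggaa

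Ldha held 5 matches, the first 180 bases before the transcript start, and 4 of them are the 2 strands of the palindrome CACGTG, which contains ACGTG. Pgk1 held 2 matches, 150 and 131 bases before the start, and Slc16a8 held 0. Of the 10 members, 4 had ACGTG in this window (Hk2, Pgk1, Ldha and Slc16a1), compared with 14.0% of the 21757 windows of protein-coding genes. CACGTG was found in 2 members (Ldha and Slc16a1) and in 5.43% of all windows. TAATCC, the letters of sites bound by the photoreceptor factor CRX, was in 0 of the 10 members and in 5.48% of all windows. These are matches of letters and not measured binding.

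The first comparison asked where each gene is expressed, using the retinas and eye cups of the 3 untreated wildtype mice. The deposited FPKM values, which are per gene length, were used to compare genes. Slc2a1 and both lactate transporters were higher in the eye cup, as was Ldhb, while both hexokinases, Pfkm, Pgk1, Pkm and Ldha were higher in the retina. All 10 members passed the test, 4 higher and 6 lower in the eye cup (edgeR's quasi-likelihood test on counts, Benjamini-Hochberg adjusted p under 0.05 over 21979 genes). This fit had no term for mouse, although both tissues came from the same mice, and adding a block for mouse changed no call of a member. The tissues differ widely, and 32.5% of all genes passed as higher and 29.0% as lower in the eye cup. With a log2-fold change past 1 also required, 8 members passed (Pfkm and Pgk1 did not), where 25.9% of all genes passed as higher and 19.3% as lower. The members' median log2-fold change was −0.96, beside 0.06 over all 21979 genes tested.

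In the retina, Pkm had the highest level of the 10, at 664, 685 and 705 FPKM. Ldha followed at 363, 361 and 394 FPKM, and Pgk1 at 321, 334 and 359 FPKM. These 3 did not overlap with each other. Ldhb (mean 123 ± 3.44 FPKM, SD) and Hk1 (112 ± 3.59 FPKM) came next and did not overlap. Slc2a1 (82.2 ± 5.85 FPKM), Hk2 (74.5 ± 11.4 FPKM), Slc16a1 (69.2 ± 4.36 FPKM) and Pfkm (63.8 ± 4.44 FPKM) each overlapped with the next in this order. Slc16a8 was lowest, at 5.17, 5.45 and 1.70 FPKM.

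In the eye cup the order was different, and Slc16a8 was the highest of the 10 at 791, 1127 and 1095 FPKM. It was higher there than in the retina by a log2 difference of 7.94 ± 0.54 (SE, edgeR adjusted p = 2.01e-05), and even the lowest eye cup was far above the highest retina. Slc2a1 came second at 337, 437 and 454 FPKM, a log2 difference of 2.32 ± 0.17 (SE, edgeR adjusted p = 3.31e-05). Ldhb had 282, 336 and 428 FPKM, a log2 difference of 1.51 ± 0.18 (SE, edgeR adjusted p = 0.000317). The ranges of Slc2a1 and Ldhb overlapped, so that these 2 levels were not ordered beyond their spread, and neither were those of Ldhb and Pkm. Slc16a1 had 129.95, 182 and 149 FPKM, a log2 difference of 1.15 ± 0.16 (SE, edgeR adjusted p = 0.000672), and overlapped with Ldha and Pgk1. Hk1, Pfkm and Hk2 were the lowest of the 10, and each overlapped with the next.

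Hk2 showed the largest fall from retina to eye cup, with 87.4, 70.4 and 65.8 FPKM in the retinas and 34.4, 5.82 and 9.49 FPKM in the eye cups, a log2 difference of −2.17 ± 0.60 (SE, edgeR adjusted p = 0.0159). The eye cup of mouse 1 was the highest of its 3, and without it the log2-fold change was −3.34 (edgeR adjusted p = 8.52e-05). Without the eye cup of mouse 3 the call was lost (edgeR adjusted p = 0.0683, log2-fold change −1.92). Hk1 was lower in the eye cup by a log2 difference of −1.61 ± 0.27 (SE, edgeR adjusted p = 0.0014). For Pkm the values were 363, 211 and 301 FPKM in the eye cups, a log2 difference of −1.23 ± 0.22 (SE, edgeR adjusted p = 0.00211). Ldha, the subunit that favors lactate, had 208, 131 and 165 FPKM in the eye cups, a log2 difference of −1.14 ± 0.19 (SE, edgeR adjusted p = 0.00147). The smallest differences were those of Pgk1 (−0.99 ± 0.15, SE) and Pfkm (−0.94 ± 0.12, SE), with edgeR adjusted p = 0.000827 and 0.000367. The same eye cups held rod markers at 26519, 3879 and 13568 CPM in mice 1, 2 and 3, and Hk1, Hk2, Pkm, Ldha and Pgk1 were each lowest in mouse 2 and highest in mouse 1. The part of rod transcripts in the eye cup levels was not tested.

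**Figure D1:**
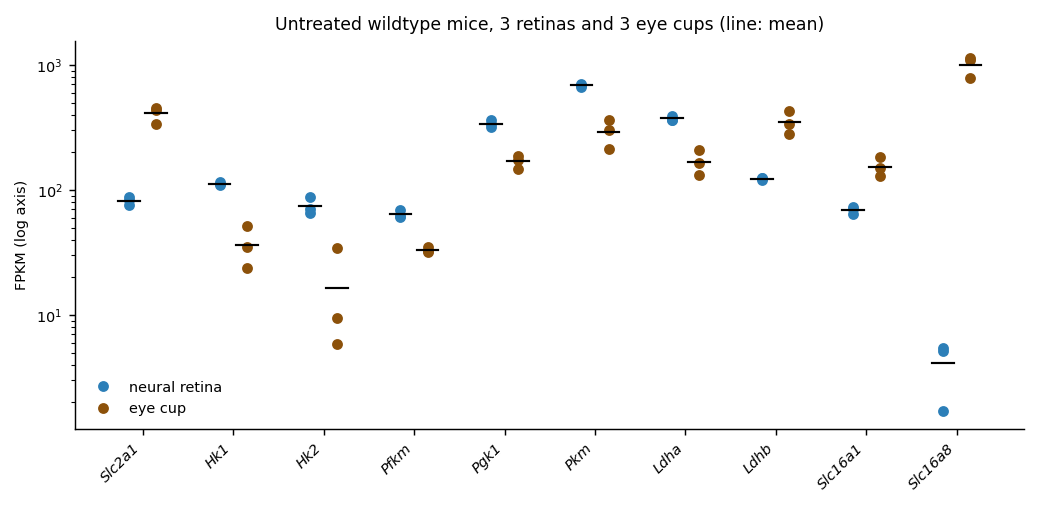
Deposited FPKM (log axis) of the 10 genes in the 3 retinas (blue) and 3 eye cups (brown) of untreated wildtype mice, with each point 1 mouse and lines at the means. Slc16a8 runs from 1.70 FPKM in the lowest retina to 1127 FPKM in the highest eye cup. The 2 tissues do not overlap for any of the 10 genes. The share of all genes without overlap was not computed, and 32.5% of all genes passed the test as higher and 29.0% as lower in the eye cup.

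Other genes of these pathways were compared between the tissues in the same way, and their counts stand beside 32.5% of all genes higher and 29.0% lower in the eye cup. Of 19 other glucose and lactate transporters and their partners tested, 11 were higher and 6 lower in the eye cup, with a median log2-fold change of 1.12. The sodium-coupled glucose transporter Slc5a1 was among the higher (log2-fold change 6.77 ± 0.38, edgeR adjusted p = 9.76e-06), and Slc2a3, the neuronal glucose transporter GLUT3, was lower (log2-fold change −3.09 ± 0.50, edgeR adjusted p = 0.00128). Of 20 other glycolytic genes, 4 were higher and 11 lower (median −0.56). The lower included the neuronal enolase Eno2 (log2-fold change −2.42 ± 0.60, edgeR adjusted p = 0.00971), and the higher included the muscle enolase Eno3 (log2-fold change 3.03 ± 0.38, edgeR adjusted p = 0.000371) and the muscle mutase Pgam2 (log2-fold change 2.91 ± 0.33, edgeR adjusted p = 0.000227). Skeletal muscle markers summed to 856 to 2145 CPM in these eye cups and 24.6 to 28.4 CPM in the retinas, and their part in these 2 genes was not tested. Pyruvate-fate genes split into 5 higher and 7 lower of 19, near those shares, with Pdk2, a kinase that blocks pyruvate dehydrogenase, higher (log2-fold change 1.63 ± 0.15, edgeR adjusted p = 9.13e-05) and Pdp1, a phosphatase that relieves that block, lower (log2-fold change −1.61 ± 0.13, edgeR adjusted p = 4.75e-05). In the fructose and polyol list, 6 of 9 were higher and 0 lower, among them Sord (log2-fold change 2.02 ± 0.14, edgeR adjusted p = 2.02e-05) and Akr1b3 (log2-fold change 1.97 ± 0.15, edgeR adjusted p = 3.05e-05), which convert glucose to fructose by way of sorbitol. The glucose-responsive list also holds enzymes of glycogen and lipid metabolism, whose own response to glucose was not tested. Of its 13 genes, 5 were higher and 3 lower, again near the shares of all genes. Txnip, an inhibitor of glucose uptake, was one of the higher (log2-fold change 4.56 ± 0.28, edgeR adjusted p = 1.3e-05). Of 17 hypoxia-inducible genes, 8 were higher and 5 lower (median 0.01).

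Ratios of 2 members within a library do not depend on library scaling, and over all 12 mice they were compared between the tissues of the same mouse. The Ldha:Ldhb ratio of FPKM ran from 2.11 to 3.55 in the retinas (median 3.05) and from 0.331 to 1.84 in the eye cups (median 0.766). It was lower in the eye cup of 12 of 12 mice, by a mean log2 difference of −1.94 ± 0.87 (SD, exact sign-flip permutation test over mice, two-sided p = 0.000488). Ldha exceeded Ldhb in every retina, while the eye cups lay on both sides of 1. The Hk2:Hk1 ratio was also lower in 12 of 12 eye cups, by −0.47 ± 0.42 (SD) on the log2 scale (exact permutation p = 0.000488). The Slc16a8:Slc16a1 ratio was 0.0242 to 0.133 in the retinas and 2.85 to 7.39 in the eye cups, higher in 12 of 12 eye cups by 6.22 ± 0.83 (SD, exact permutation p = 0.000488). The p of 0.000488 is the smallest that 12 mice allow, and it stayed 0.000488 after Benjamini-Hochberg adjustment over the 3 ratios. The 12 mice pool both genotypes and treatments. In untreated wildtype mice alone all 3 differences were larger in size, as given in the section on processing.

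The main comparison of the study set PRDM13-OE retinas with dox against wildtype retinas with dox. Ldha and Pgk1 fell in the PRDM13-OE retinas, and the other 8 members did not pass the test. Ldha, which makes lactate from pyruvate, was at 1405, 1596 and 1448 CPM in the wildtype and 1023, 949 and 1075 CPM in the PRDM13-OE retinas, with no overlap. This was a log2 difference of −0.55 ± 0.05 (SE, edgeR adjusted p = 4.37e-05), a level 0.682 times that of wildtype. Pgk1, which makes ATP and a phosphoglycerate, was at 889, 933 and 850.0 CPM in the wildtype and 678, 666 and 676 CPM in the PRDM13-OE retinas. All 3 PRDM13-OE values were below all 3 wildtype values, with a log2 difference of −0.41 ± 0.04 (SE, edgeR adjusted p = 4.9e-05). Of 20560 genes tested, 7.51% passed as lower and 5.01% as higher, beside 2 lower and 0 higher members of 10. The members' median log2-fold change was −0.10, beside 0.01 over all 20560 genes tested. Neither gene passed a log2-fold change cutoff of 1.

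Among the members that did not pass, Slc2a1 had 393, 416 and 384 CPM in wildtype and 346, 351 and 377 CPM in PRDM13-OE retinas with dox. These values did not overlap, and the log2-fold change of −0.16 ± 0.05 (SE) had an edgeR adjusted p of 0.0612. It passed with DESeq2, with robust fitting and with no filter on low counts, whereas with library size in place of TMM it was −0.07. Hk2, the inducible hexokinase, went the other way, with 453, 476 and 343 CPM in wildtype and 489, 498 and 557 CPM in PRDM13-OE retinas, a log2 difference of 0.27 ± 0.10 (SE, edgeR adjusted p = 0.0905). Wildtype retina 3 was low for Hk2, and all 3 PRDM13-OE values lay above the wildtype values. Hk2 passed as higher with library size, with no filter, with the lens covariate and without wildtype retina 2 (edgeR adjusted p = 0.0363), and without wildtype retina 3 its log2-fold change was 0.15 (edgeR adjusted p = 0.145). Over the 15 alternative fits its log2-fold change ran from 0.15 to 0.69. Hk1, the constitutive hexokinase, was at 1025 ± 9.23 CPM in wildtype and 979 ± 8.73 CPM in PRDM13-OE (SD, log2-fold change −0.07 ± 0.03, SE, edgeR adjusted p = 0.197). Pkm, whose muscle and photoreceptor splice forms are counted here as 1 gene, had 4151 ± 245 and 3893 ± 114 CPM, a log2 difference of −0.10 ± 0.04 (SE, edgeR adjusted p = 0.111), and passed as lower without wildtype retina 3 (edgeR adjusted p = 0.0347) and with no filter (edgeR adjusted p = 0.0105). The remaining 4 had log2-fold changes of −0.15 ± 0.06 (Slc16a1), −0.09 ± 0.11 (Slc16a8), −0.03 ± 0.05 (Ldhb) and −0.02 ± 0.05 (Pfkm; all SE), with edgeR adjusted p values from 0.14 to 0.853. For these 4, the groups overlapped. Slc16a1 passed as lower with no filter (edgeR adjusted p = 0.0391). That fit called 6 of 10 members, 1 higher and 5 lower, beside 4.83% of all genes higher and 7.28% lower.

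Other measures moved with genotype in the same retinas. Rod markers summed to 58580.0 to 65605 CPM in PRDM13-OE and 76519 to 78948 CPM in wildtype retinas with dox, cone markers to 919 to 999 and 1591 to 1656 CPM, endothelial markers to 166 to 189 and 336 to 355 CPM, RPE markers to 386.5 to 405 and 519.7 to 599 CPM and fibroblast markers to 40.0 to 78.0 and 80.8 to 111 CPM, and the lens and red blood cell genes are given above. None of these lists overlapped between the groups. Single genes passed as lower in edgeR for 10 of 14 rod, 8 of 12 cone, 6 of 9 endothelial, 8 of 14 RPE and 1 of 7 fibroblast markers, and 2 cone markers passed as higher. The part of these lists other than the lens genes in the falls of Ldha and Pgk1 was not tested. The summed Müller glia markers overlapped, at 7536 to 7877 and 7836 to 7888 CPM, although 5 of 10 passed as lower and 2 as higher (Rlbp1, for example, was at 466 to 499 and 635 to 676 CPM). Apart from the log2-fold change cutoff, Ldha fell in all 15 alternative fits of this comparison, also with the lens list as a covariate and without the 2 lens-rich retinas. The latter fit keeps 1 wildtype retina with dox, takes the spread from all 10 remaining retinas and so assumes that this retina varies like the other groups. Pgk1 was lost in these 2 fits, where 2.54% and 3.24% of all genes were called, with log2-fold changes of −0.30 (edgeR adjusted p = 0.211) and −0.35 (edgeR adjusted p = 0.0688).

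**Figure D2:**
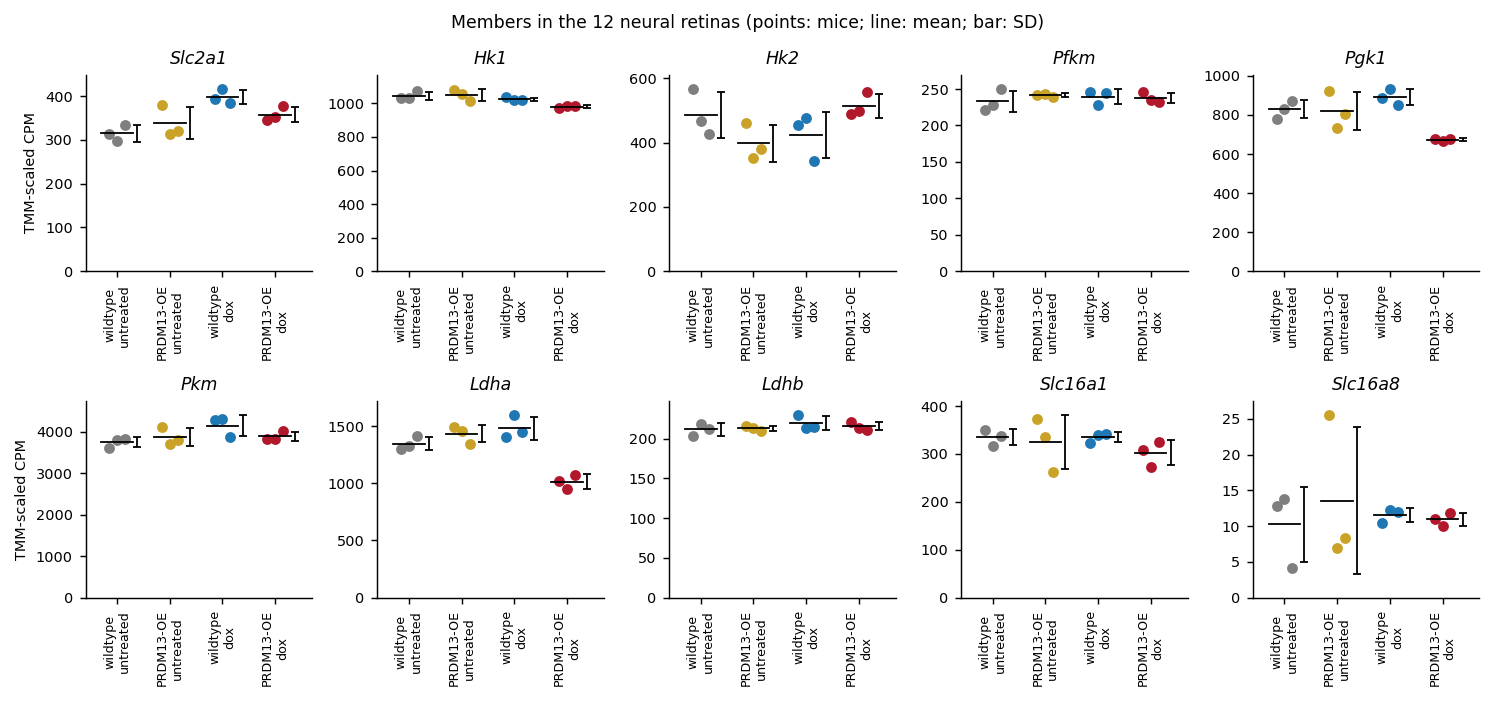
TMM-scaled CPM (vertical axes from 0) of the 10 genes in the 12 retinas by group, with each point 1 mouse, lines at the means and bars of 1 SD. Ldha lies between 949 and 1075 CPM in the 3 PRDM13-OE retinas with dox and at 1305 CPM or more in the other 9 retinas, and Pgk1 is at most 678 CPM in the same 3 and at least 734 CPM elsewhere.

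In the same comparison, 1 of 20 other glycolytic genes rose and 4 fell, beside 5.01% and 7.51% of all genes. Eno1, the broadly expressed enolase, fell from 3856 ± 262 to 2928 ± 145 CPM (SD, log2-fold change −0.40 ± 0.05, edgeR adjusted p = 0.00013), while its neuronal relative Eno2 rose from 790.2 ± 42.7 to 1032 ± 26.2 CPM (SD, log2-fold change 0.38 ± 0.05, edgeR adjusted p = 0.000306). Pfkfb3, which makes the allosteric activator of phosphofructokinase, fell (log2-fold change −0.73 ± 0.10, edgeR adjusted p = 0.000507), as did the triose isomerase Tpi1 (log2-fold change −0.25 ± 0.04, edgeR adjusted p = 0.00213) and, named after its value was seen, the mutase Pgam1 (log2-fold change −0.24 ± 0.04, edgeR adjusted p = 0.00339). Of 19 other transporters and partners, 2 rose and 4 fell. Emb, an ancillary protein of monocarboxylate transporters, fell (log2-fold change −0.42 ± 0.06, edgeR adjusted p = 0.0013), as did the lactate exporter MCT4 gene Slc16a3 (log2-fold change −0.40 ± 0.09, edgeR adjusted p = 0.0129) and Slc2a3 (log2-fold change −0.35 ± 0.07, edgeR adjusted p = 0.00759), while the sodium-coupled monocarboxylate transporter Slc5a8 rose from a low level (log2-fold change 1.29 ± 0.17, edgeR adjusted p = 0.000551). The glucose transporter gene Slc2a8 also rose (log2-fold change 0.34 ± 0.09, edgeR adjusted p = 0.0254).

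In the pyruvate-fate list, which holds pyruvate dehydrogenase and its regulators, the pyruvate carrier, malate dehydrogenases and transaminases, 1 of 19 genes rose and 2 fell, shares near the 5.01% and 7.51% of all genes. Pdha1, a subunit of pyruvate dehydrogenase, rose (log2-fold change 0.35 ± 0.06, edgeR adjusted p = 0.00205), and Pdk3, a kinase that inhibits that enzyme, fell (log2-fold change −0.61 ± 0.07, edgeR adjusted p = 0.000141), while Pdp1, the phosphatase that works against such kinases, fell as well (log2-fold change −0.23 ± 0.07, edgeR adjusted p = 0.0482). In the fructose and polyol list, 2 of 10 rose and 0 fell. They were the fructose transporter Slc2a5, at 1.72 CPM compared with 0.523 CPM in wildtype (log2-fold change 1.69 ± 0.35, edgeR adjusted p = 0.00891), and the fructose kinase Khk (log2-fold change 0.34 ± 0.10, edgeR adjusted p = 0.0485). Of the 13 genes in the glucose-responsive list, Txnip rose (log2-fold change 0.53 ± 0.11, edgeR adjusted p = 0.00728) and 3 fell. These 3 were its glycogen and lipid enzymes, the glycogen phosphorylases Pygm (log2-fold change −0.60 ± 0.06, edgeR adjusted p = 5.36e-05) and Pygb (log2-fold change −0.46 ± 0.06, edgeR adjusted p = 0.000452) and the desaturase Scd2 (log2-fold change −0.20 ± 0.05, edgeR adjusted p = 0.0281). Of 17 hypoxia-inducible genes, 0 rose and 6 fell, with a median log2-fold change of −0.22. The 3 with the largest change were Egln3 (log2-fold change −0.60 ± 0.16, edgeR adjusted p = 0.0267), Ndrg1 (log2-fold change −0.57 ± 0.05, edgeR adjusted p = 2.58e-05) and P4ha1 (log2-fold change −0.47 ± 0.09, edgeR adjusted p = 0.00382). Over the other lists the medians lay between −0.10 and 0.01, beside 0.01 over all genes.

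Dox and sucrose without the transgene were assessed by comparing wildtype retinas with dox and untreated. No member passed (0 of 10; edgeR), 3 had an unadjusted p under 0.05, where 9.32% of all genes did, and DESeq2 called 1, Slc2a1, where it called 0.451% of all genes. Over all 20631 genes, 0.00485% passed as higher and 0.0% as lower, and the members' median log2-fold change was 0.08, beside −0.01 over all 20631 genes tested. Slc2a1 was at 313, 297 and 334 CPM in the untreated and 393, 416 and 384 CPM in the treated wildtype retinas. The 2 sets did not overlap, with a log2 difference of 0.34 ± 0.06 (SE, edgeR adjusted p = 0.115). Slc2a1 also passed with robust fitting (beside 0.126% of all genes), with no filter on low counts (2.07%) and without wildtype retina 3 with dox (edgeR adjusted p = 0.0303, beside 0.909%). Without the lens-rich retinas, which leaves 1 treated retina with the spread taken from the other groups, its log2-fold change was 0.30 (edgeR adjusted p = 0.969). Some marker lists also did not overlap between these 6 retinas, with Müller glia at 7836 to 7888 CPM treated and 6679 to 7373 CPM untreated, cone at 1591 to 1656 and 1799 to 1832 CPM, and fibroblast at 80.8 to 111 and 47.5 to 73.1 CPM, and their part was not tested. Pkm was also higher in every treated retina (0.15 ± 0.04, SE, edgeR adjusted p = 0.315). Ldha, at 1349 ± 57.1 and 1483 ± 100.0 CPM (SD), and Pgk1, at 829 ± 46.1 and 890.5 ± 41.3 CPM, overlapped between untreated and treated. None of the genes in the 6 pathway lists passed in edgeR, the fructose and polyol list included (0 of 9), and the median log2-fold change of the 21 other glycolytic genes was 0.17, beside −0.01 over all genes.

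When PRDM13-OE retinas with dox were compared with untreated PRDM13-OE retinas, Ldha and Pgk1 again fell and Hk2 rose. Untreated PRDM13-OE retinas had 1496, 1463 and 1349 CPM of Ldha, a log2 difference of −0.50 ± 0.06 (SE, edgeR adjusted p = 0.000177). They had 925, 734 and 806 CPM of Pgk1, a log2 difference of −0.29 ± 0.07 (SE, edgeR adjusted p = 0.0354), and 462, 351 and 381 CPM of Hk2, a log2 difference of 0.37 ± 0.09 (SE, edgeR adjusted p = 0.0327). None of the 3 overlapped with the treated retinas. Marker lists moved here too, with rod markers at 58580.0 to 65605 CPM treated and 76773 to 83419 CPM untreated (9 of 14 passed as lower), cone markers at 919 to 999 and 1648 to 1763 CPM (8 of 12 lower, 1 higher) and endothelial markers at 166 to 189 and 296 to 339 CPM (4 of 9 lower). Red blood cell markers (0.709 to 1.18 and 28.3 to 64.5 CPM, 5 of 5 lower) and skeletal muscle markers (24.7 to 27.5 CPM treated, 96.3, 29.3 and 29.1 CPM in untreated retinas 1, 2 and 3, 0 of 13 passed) did not overlap either. Untreated retina 1 was also the highest of its 3 for Ldha, Pgk1 and Hk2. The part of these lists was not tested. Of 20603 genes, 2.04% rose and 2.96% fell, beside 1 and 2 of 10 members, and the members' median was −0.06, beside 0.00 over all 20603 genes tested. Ldha fell when any 1 library was left out, whereas Pgk1 was lost in 5 of these 6 fits (kept only without untreated retina 2; edgeR adjusted p up to 0.163) and Hk2 in 5 (kept only without untreated retina 1; up to 0.172). Pgk1 was also lost with library size in place of TMM, and Hk2 with robust fitting and with all 12 retinas in the fit. The same treated PRDM13-OE libraries enter this comparison and the one with wildtype, so the values are not independent. Of the 6 pathway lists, 4 had 1 rise and 1 fall each (other glycolysis, other transport, pyruvate fate and hypoxia-inducible), the fructose and polyol list had 1 rise, and the glucose-responsive list had 2 falls (edgeR).

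Without dox, the 2 genotypes gave 0 of 10 members past the test (edgeR, and 0 with DESeq2), where 0.00484% of 20668 genes passed as higher and 0.0% as lower. An unadjusted edgeR p under 0.05 was reached by 1 member, Hk2, and by 3.76% of all genes. The log2-fold change between untreated PRDM13-OE and untreated wildtype was 0.10 ± 0.06 for Ldha (SE, edgeR adjusted p = 0.995) and 0.00 ± 0.08 for Pgk1 (SE, edgeR adjusted p = 0.998). Hk2 had 566, 466 and 426 CPM in the untreated wildtype and 462, 351 and 381 CPM in the untreated PRDM13-OE retinas, which overlapped (−0.28 ± 0.11, SE, edgeR adjusted p = 0.995). Slc16a8 was at 12.8, 13.8 and 4.2 CPM in untreated wildtype and 25.5, 6.94 and 8.29 CPM in untreated PRDM13-OE retinas. The high value was that of mouse 1, whose retina also had the most RPE transcripts (764 CPM, compared with at most 599 CPM in the other 11 retinas).

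Whether the genotype difference itself changed with dox was tested as an interaction over all 12 retinas. The interaction passed for 2 of 10 members, both lower, where 1.83% of 22538 genes passed as lower and 1.19% as higher. The term was −0.64 ± 0.08 (SE, log2 scale) for Ldha (edgeR adjusted p = 0.000192) and −0.39 ± 0.10 for Pgk1 (edgeR adjusted p = 0.0304). Hk2 had the largest term in the other direction, 0.56 ± 0.17 (SE, edgeR adjusted p = 0.0932), which passed with library size in place of TMM, with no filter, with the lens list as a covariate, without the lens-rich retinas and without untreated PRDM13-OE retina 1. The members' median term was −0.12, beside 0.01 over all 22538 genes tested. The Pgk1 call was lost with the replicate block (edgeR adjusted p = 0.0516), with library size, with the lens covariate and without the lens-rich retinas (edgeR adjusted p up to 0.269). It was also lost without any 1 PRDM13-OE retina with dox, and without wildtype retina 1 or 2, treated or untreated. Of the other glycolytic genes, 3 had a lower and 0 a higher interaction term past the test, and the other 5 pathway lists had 0 to 2 in either direction (edgeR).

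The Ldha:Ldhb ratio of FPKM was lower in PRDM13-OE retinas with dox, at 2.19, 2.11 and 2.41, than in wildtype retinas with dox, at 2.91, 3.55 and 3.20. The 2 sets did not overlap, and the mean log2 difference was −0.52 (exact permutation p = 0.1, the smallest that 3 retinas against 3 allow). The Hk2:Hk1 ratio was 0.721, 0.725 and 0.808 in PRDM13-OE and 0.626, 0.666 and 0.482 in wildtype retinas with dox, a log2 difference of 0.36 with no overlap (exact permutation p = 0.1). The size of this difference rests in part on wildtype retina 3, which had the lowest ratio. In the untreated retinas the Ldha:Ldhb ratio was 3.29, 3.26 and 3.05 in PRDM13-OE and 3.05, 2.88 and 3.16 in wildtype, which overlapped. The Hk2:Hk1 ratio was 0.611, 0.476 and 0.538 in untreated PRDM13-OE and 0.783, 0.646 and 0.567 in untreated wildtype retinas. These also overlapped, and the untreated wildtype values overlapped with those of PRDM13-OE retinas with dox.

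**Figure D3:**
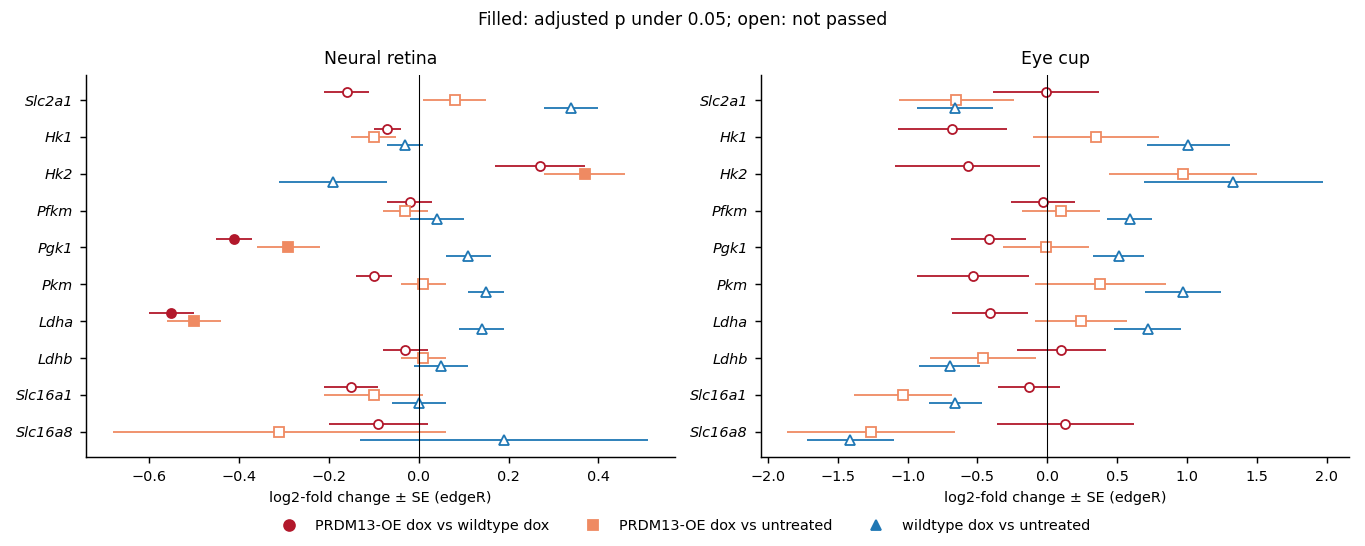
Log2-fold changes (points) with their SE (bars) from edgeR for the 10 genes in retinas (left) and eye cups (right), for PRDM13-OE with dox against wildtype with dox (red circles), PRDM13-OE with dox against untreated (orange squares) and wildtype with dox against untreated (blue triangles). Filled symbols passed an adjusted p of 0.05, which are Ldha and Pgk1 in 2 retinal comparisons and Hk2 in 1, while no symbol of the eye cup panel is filled.

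In the eye cups, PRDM13-OE mice with dox were compared with wildtype mice with dox, and no member passed (0 of 10; edgeR, 0 also at an unadjusted p under 0.05 and with DESeq2). Among 21758 genes, 0.0046% passed as higher and 0.0138% as lower, and 8.24% had an unadjusted p under 0.05. Ldha was at 1047, 883 and 691 CPM in the wildtype and 593, 512 and 791 CPM in those of PRDM13-OE mice, which overlapped, with a log2 difference of −0.41 ± 0.27 (SE, edgeR adjusted p = 0.631). Pgk1 had 576, 547 and 427 and 292, 313 and 509 CPM, also overlapping, with a log2 difference of −0.42 ± 0.27 (SE, edgeR adjusted p = 0.618). Hk1 had the largest difference, with 711, 617 and 476 CPM in the wildtype and 266, 222 and 598 CPM in those of PRDM13-OE mice. PRDM13-OE eye cup 3 lay within the wildtype range, and without it Hk1 passed as lower (−1.22; edgeR adjusted p = 0.0314, beside 6.91% of all genes lower in that fit), compared with −0.68 ± 0.39 (SE, edgeR adjusted p = 0.606) with it. The same omission moved Pgk1 to −0.70, Pkm from −0.53 to −1.02 and Hk2 from −0.57 to −1.28 (edgeR adjusted p = 0.0858, 0.0601 and 0.0866). Other fits moved them toward 0, with Hk1 at −0.44, Pkm at −0.34 and Hk2 at −0.25 without PRDM13-OE eye cup 2. With the summed rod list as a covariate over all 12 eye cups, the log2-fold changes were −0.24 for Hk1, −0.16 for Pkm, −0.23 for Pgk1, −0.13 for Ldha and, with the sign changed, 0.23 for Hk2. Rod markers summed to 13501, 6553 and 41194 CPM in these 3 PRDM13-OE eye cups and to 26811 to 51454 CPM in the wildtype. The SEs of the 10 members were 0.22 to 0.52 here, compared with 0.03 to 0.11 in the retina. Whether the genotype differences of Ldha and Pgk1 differed between the tissues was not tested. The members' median was −0.27, beside 0.05 over all 21758 genes tested.

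**Figure D4:**
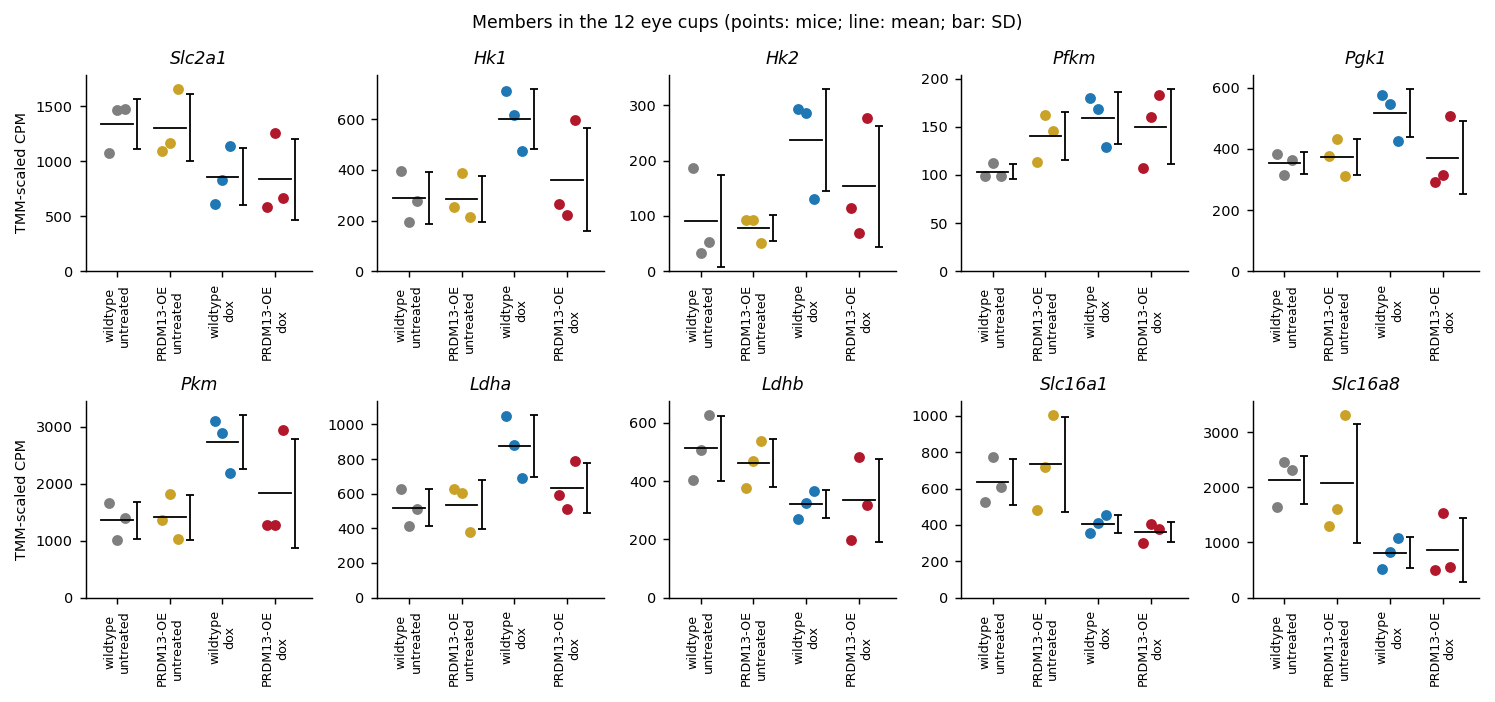
TMM-scaled CPM (vertical axes from 0) of the 10 genes in the 12 eye cups by group, with each point 1 mouse, lines at the means and bars of 1 SD. The points of a group are widely spread, for example from 507 to 1539 CPM for Slc16a8 in treated PRDM13-OE eye cups.

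Wildtype eye cups with dox differed from untreated wildtype eye cups by log2-fold changes from −1.41 to 1.33, and 0 of 10 members passed with edgeR. In all, 9 members had an unadjusted p under 0.05, as did 29.9% of the 21799 genes tested, and DESeq2 called 7, where it called 18.5% of all genes. By edgeR, 0.0% of all genes were called higher and 0.0% lower. The 6 members that were higher in the retina than in the eye cup had higher mean values with dox. Hk1 was at 397, 194 and 278 CPM untreated and 711, 617 and 476 CPM with dox, a log2 difference of 1.01 ± 0.30 (SE, edgeR adjusted p = 0.086), with no overlap. Pkm had 1656, 1009.7 and 1400.0 and 3095, 2883 and 2188 CPM, a log2 difference of 0.97 ± 0.27 (SE, edgeR adjusted p = 0.0787), again with no overlap. Ldha (0.72 ± 0.24, SE), Pgk1 (0.51 ± 0.18) and Pfkm (0.59 ± 0.16) did not overlap either, and Hk2 (1.33 ± 0.64) did.

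The 4 members that were higher in the eye cup than in the retina, by the same untreated eye cups, had lower mean values with dox. Slc16a8 was at 1643, 2460.3 and 2317 CPM untreated and 521, 829 and 1086 CPM with dox, a log2 difference of −1.41 ± 0.31 (SE, edgeR adjusted p = 0.0673). Every treated value was below every untreated value. Slc16a1 (−0.66 ± 0.19, SE) and Ldhb (−0.70 ± 0.22) also did not overlap, whereas Slc2a1 (−0.66 ± 0.27) did. DESeq2 called Hk1, Pfkm, Pkm and Ldha higher and Ldhb, Slc16a1 and Slc16a8 lower. In edgeR, 3 members passed with library size in place of TMM (Pfkm, Pkm and Slc16a8, beside 6.18% of all genes), 4 without untreated wildtype eye cup 1 (Hk1, Hk2 at 2.44, Pkm and Slc16a8, beside 13.5%) and 2 without wildtype eye cup 3 with dox (Pfkm and Slc16a8, beside 6.59%). The members' median was 0.55, beside −0.05 over all 21799 genes tested.

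Cell type markers moved with dox in the same 6 eye cups. Rod markers summed to 26811 to 51454 CPM with dox and 3879 to 26519 CPM untreated, and RPE markers to 10777 to 23184 CPM with dox and 30527 to 47748 CPM untreated, without overlap in either list. Cone markers (517 to 920 and 107 to 459 CPM) and endothelial markers (412 to 632 and 639.7 to 1250.1 CPM) did not overlap either. The Müller glia list (10367 to 11393 and 13068 to 19974 CPM) did not overlap as well, but it ran above its 6679 to 7888 CPM in wildtype retinas. It therefore does not stand for Müller glia alone in eye cups. Of its genes, Rlbp1 was at 971 to 1523 CPM with dox and 2015 to 2912 CPM untreated. The part of these lists was not tested. With the summed rod list as a covariate over all 12 eye cups, the log2-fold change was 0.29 for Hk1, 0.35 for Pkm, 0.32 for Ldha and −0.64 for Slc16a8, and no member passed (edgeR adjusted p from 0.885 to 0.964). The log2-fold change was 0.27 for Hk2, 0.18 for Pgk1, −0.14 for Slc2a1, −0.38 for Ldhb and −0.33 for Slc16a1. These 9 values were nearer to 0 than without the covariate by more than 1.5 times, while Pfkm stayed at 0.56. Treatment and these marker transcripts of the 6 eye cups changed together and cannot be told apart by the groups alone.

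Across the 12 eye cups, 5 members followed the rod list most closely and 4 the RPE list. Hk1 followed the summed rod list, with Pearson's r = 0.96 (permutation p = 2e-05) and Spearman's rho = 0.97 (permutation p = 1e-05). Without the 2 eye cups farthest from the median of the rod list r was 0.99, and it was 0.94 within the 6 untreated and 0.98 within the 6 treated eye cups. Pkm (r = 0.93, rho = 0.98, r = 0.97 without the 2 farthest), Hk2 (r = 0.92, rho = 0.91, r = 0.92 without the 2 farthest), Ldha (r = 0.90, rho = 0.92, r = 0.93 without the 2 farthest) and Pgk1 (r = 0.88, rho = 0.90, r = 0.93 without the 2 farthest) did so too, with permutation p values up to 0.00023 for r and 0.00026 for rho. Slc16a8 followed the summed RPE list, with Pearson's r = 0.99 (permutation p = 1e-05) and Spearman's rho = 0.98 (permutation p = 1e-05), and r was 0.98 without the 2 farthest eye cups, 0.98 within the untreated and 0.96 within the treated. Slc2a1 (r = 0.97, rho = 0.89, r = 0.95 without the 2 farthest), Ldhb (r = 0.92, rho = 0.94, r = 0.92 without the 2 farthest) and Slc16a1 (r = 0.89, rho = 0.94, r = 0.86 without the 2 farthest) also followed the RPE list, with permutation p values up to 0.00012 for r and 0.00028 for rho. Pfkm followed neither closely (r = 0.43 with the rod list, permutation p = 0.157; rho = 0.55, permutation p = 0.0721, and −0.43 with the RPE list, permutation p = 0.159). In all 30 relations were computed (10 members with the rod, RPE and skeletal muscle lists), and the Benjamini-Hochberg adjusted p for the 9 members named with a list was at most 0.000767 for r and 0.000933 for rho (permutation test). Several members also had negative relations, all smaller in size over the 12 eye cups. With the RPE list r was −0.78 for both Hk2 and Ldha (adjusted permutation p = 0.0104 and 0.00909, rho = −0.74 and −0.71, r = −0.86 and −0.94 without the 2 farthest). With the rod list it was −0.66 for Slc2a1 and −0.67 for Slc16a8 (adjusted permutation p = 0.038 for both, rho = −0.64 and −0.60). The skeletal muscle list gave r = −0.70 for both Hk1 and Pkm (adjusted permutation p = 0.0312 for both, rho = −0.76 and −0.75, r = −0.58 and −0.60 without the 2 farthest) and −0.65 for Ldha (adjusted permutation p = 0.038, rho = −0.71, r = −0.48 without the 2 farthest). Within the 6 untreated eye cups the closest list was another for some members. Ldha had r = −0.89 with the RPE list and 0.83 with the rod list there. Slc16a1 had r = 0.83 with the skeletal muscle list and 0.74 with the RPE list (−0.39 and 0.81 within the treated). Pfkm had r = 0.88 with the skeletal muscle list, and −0.14 within the treated. The part of the skeletal muscle list in the relations with the rod list was not tested. The smallest p that the 100000 permutations give is 1e-05. Both sides of each relation are shares of the same library.

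**Figure D5:**
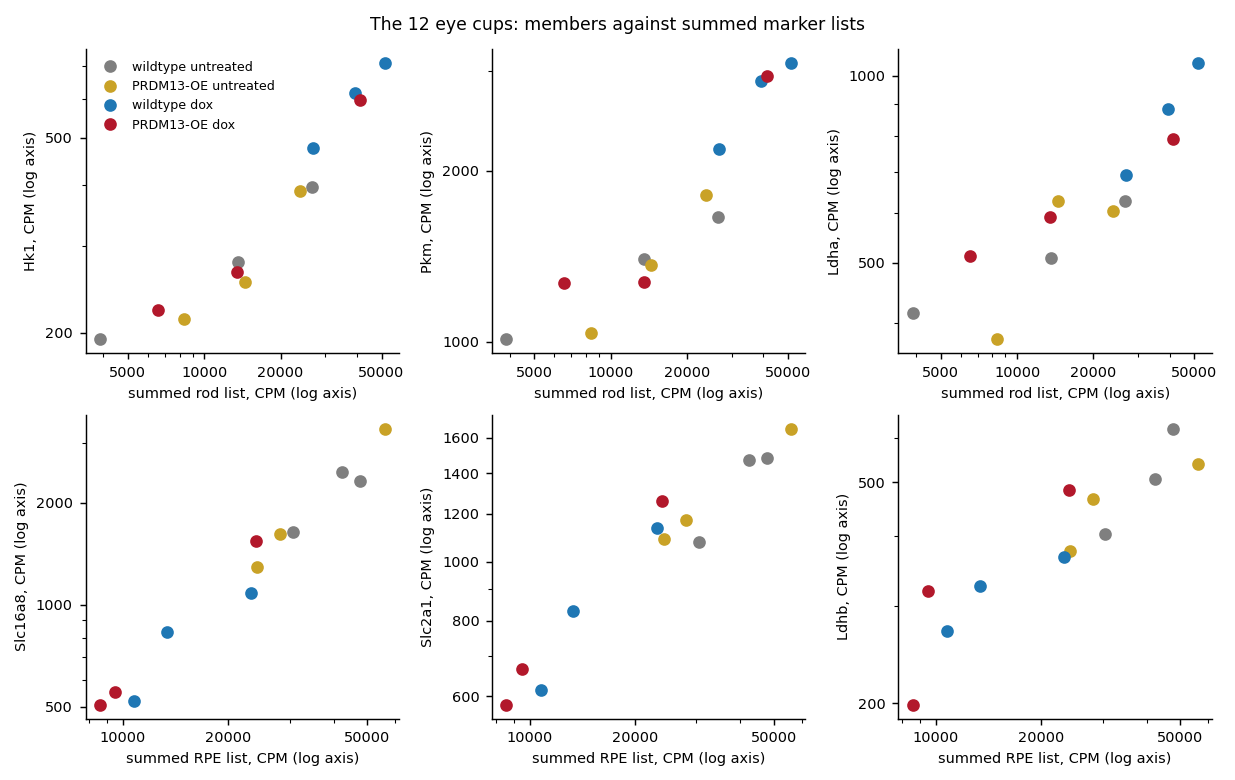
CPM of 6 members (vertical, log axes) against the summed CPM of a marker list (horizontal, log axes) in the 12 eye cups, colored by group, with rod markers above and RPE markers below. The points form 1 band in each panel, with eye cups of all 4 groups along it, and the rod list runs from 3879 to 51454 CPM.

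The remaining eye cup comparisons gave no calls among the members. For PRDM13-OE with dox against untreated PRDM13-OE, 0 of 10 passed (edgeR, and 0 with DESeq2), where 0.0% of 21604 genes passed as higher and 0.0139% as lower. An unadjusted edgeR p under 0.05 was reached by 1 member and by 4.14% of all genes. That 1 member was Slc16a1, at 479.7, 718 and 1003 CPM untreated and 300.4, 405 and 375 CPM with dox, a log2 difference of −1.03 ± 0.35 (SE, edgeR adjusted p = 0.975). The treated values were all below the untreated ones. In the same eye cups RPE markers summed to 24215, 28108 and 55999 CPM untreated and 8578, 23945 and 9490.3 CPM with dox, and red blood cell markers to 558 to 1167 and 12.4 to 14.3 CPM, also without overlap, and their part was not tested. Slc16a8 was at 1295, 1611 and 3305 CPM untreated and 507, 1539 and 554 CPM with dox, with overlap (−1.26 ± 0.60, SE, edgeR adjusted p = 0.975). Between untreated PRDM13-OE and untreated wildtype eye cups, 0 of 10 passed (edgeR; 0 at an unadjusted p under 0.05, 0 with DESeq2; 0.0% and 0.0% of 21588 genes higher and lower), and the log2-fold changes lay between −0.24 and 0.43. The interaction of genotype and dox also passed for 0 of 10 (edgeR, beside 0.0% and 0.0% of 23837 genes, and 0 with DESeq2), with 0 at an unadjusted p under 0.05. Of all genes, 1.87% (untreated genotypes) and 6.4% (interaction) had an unadjusted p under 0.05. Within a library, the Ldha:Ldhb ratio was 0.738, 0.389 and 0.386 in untreated and 1.84, 1.29 and 0.894 in treated wildtype eye cups, a log2 difference of 1.42 with no overlap (exact permutation p = 0.1, the smallest possible). Over the 24 ratio tests between groups the adjusted p was at least 0.4. In these eye cup comparisons of genotype or dox, 0 genes of the 6 pathway lists passed in edgeR.

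The genes whose pattern was most like that of a member were found by the correlation of log2(CPM + 1) over the 12 libraries of a tissue, among 10213 genes in the retinas and 10657 in the eye cups with a mean of at least 10 CPM, and are given as a description. In the retinas, the 3 nearest to Pkm were Aldoa (0.95), Pfkl (0.92) and Pgam1 (0.91), and Aldoa (0.89) was also second for Slc2a1. The nearest to Pgk1 were Eno1b (0.97), Clu (0.94) and Cdc42ep1 (0.93), of which Eno1b is a near copy of Eno1 that can share its reads. The nearest to Ldha were Pon2 (0.98), Klhl21 (0.97) and Lrit1 (0.97). For Slc16a8 they were Rdh5 (0.96), Rgr (0.94) and Ttr (0.93). In the eye cups, the nearest to Slc16a8 were Slc6a13 (0.99), Rdh5 (0.99) and Dlg3 (0.99), those to Pkm Got1 (0.99), Pgam1 (0.99) and Ttc3 (0.99), and those to Slc2a1 Pla2g5 (0.99), Pcolce (0.99) and Vegfb (0.98).

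Some members share sequence with other genes, and the counts may be split between them. The pseudogenes Pgk1-rs7, Ldha-ps2 and Ldhb-ps had total counts equal to 0.409%, 0.223% and 0.0962% of those of Pgk1, Ldha and Ldhb over the 24 libraries. Senp1, on the other strand, overlaps Pfkm and had a total of 12.4% of the Pfkm count. Whether the counting used strand is not given in the sources used here, so reads in the overlap cannot be assigned to Pfkm with certainty.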

How the data were processed

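Poly(A) RNA of 12 neural retinas and 12 eye cups, 1 of each from 12 separate mice, was sequenced and quantified for the authors by a sequencing company. The submitters' processing notes name CASAVA, HISAT2 and the GRCm39 (mm39) build. The counting tool, its strand setting and the annotation release are not given in the sources used here. The authors deposited raw read counts per gene and FPKM values, which are fragments scaled to gene length and library size. The authors' own fold changes and p-values for 12 comparisons were not used.

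Samples were grouped by tissue, genotype and treatment as labelled. Genes with a summed count of at least 10 over the libraries fitted were tested with edgeR 4.0.16 (TMM scaling, quasi-likelihood test) in R 4.3.3, and p-values were adjusted by Benjamini-Hochberg over all genes tested and called under 0.05. CPM was TMM-scaled per tissue. Alternatives were DESeq2 1.42.0, library size, other filters, robust fitting, a replicate block, covariates for lens, rod or skeletal muscle transcripts, the study's log2-fold change cutoff of 1 and leaving out each library. The code was tested on simulated data. The mouse number of the labels was checked as a pairing: between tissues, the 3 pairs of untreated wildtype libraries from the same mouse had correlations of deviations of 0.12 to 0.17, and between groups the number joins different mice. Correlations used log2(CPM + 1).

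All 10 members were tested and counted in every comparison, while several comparisons print values for only some of them. Pathway genes were named from among the 3 with the largest log2-fold change of their list and direction, past the test, without overlap between groups and with a mean of at least 1 CPM in the higher group. All of these are given for PRDM13-OE against wildtype retinas with dox and examples for the other comparisons. The members and the gene lists were chosen with earlier results of these data known. Sequences were read from the GRCm39 genome at the start of the GENCODE vM39 canonical transcript. No protein sequence was used here.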

Additional observations from a re-analysis of the deposited data

Results flagged for a closer look

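The genotype difference of 2 members differed between treated and untreated retinas, by the interaction term of the fit over all 12 retinas. For Ldha the term was −0.64 on the log2 scale (edgeR quasi-likelihood test, Benjamini-Hochberg adjusted p = 0.000192): the log2-fold change between the genotypes was −0.55 with dox and 0.10 without. For Pgk1 the term was −0.39 (edgeR adjusted p = 0.0304), with −0.41 with dox and 0.00 without. The Pgk1 term was lost in 11 of 20 alternatives, the replicate block among them (adjusted p up to 0.269), while the Ldha term passed in all 20. These leave out the log2-fold change cutoff of 1, which neither term passed. Every group held 3 samples, too few to look for single outlying samples within a group.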

How the results depend on the processing

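Of 1710 member values under the alternatives, 1531 kept their direction and their side of the threshold, 112 changed sign while uncalled in both fits, 40 were called only in the alternative, 27 only in the fit reported, and 0 reversed a call. The cause of these changes was not tested. For PRDM13-OE against wildtype retinas with dox (2 members), 6 members passed with no filter (beside 12.1% of all genes called, compared with 12.5% as reported), 1 without the lens-rich retinas (added after seeing the data, with 1 wildtype retina with dox left), 0 with the log2-fold change cutoff of 1, and 2 to 3 when 1 library was left out. For wildtype retinas with dox against untreated (0), DESeq2 gave 1, no filter 3, robust fitting 1, and leaving out 1 library 0 to 1. For PRDM13-OE retinas with dox against untreated (3), the cutoff gave 0 and leaving out 1 library 1 to 2, and over 14 alternatives other than the cutoff Pgk1 was lost in 6 and Hk2 in 7. For untreated genotypes in the retina (0), no filter gave 1. For the retinal interaction (2), the replicate block gave 1, the cutoff 0 and leaving out 1 library 1 to 3. In the eye cup, PRDM13-OE against wildtype with dox (0) gave 0 to 1 when 1 library was left out. Wildtype eye cups with dox against untreated (0) gave 3 with library size, 7 with DESeq2, 1 with no filter and 0 to 4 when 1 library was left out. Between tissues (10), leaving out 1 library gave 9 to 10. In untreated wildtype mice only, the log2 differences of the ratios were −2.66 (Ldha:Ldhb), −0.89 (Hk2:Hk1) and 6.96 (Slc16a8:Slc16a1), each with an exact permutation p of 0.25, the smallest that 3 mice allow. The ratio comparisons between groups without overlap numbered 6, 7 with a pseudocount and 6 to 9 when 1 library was left out.

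The replicate block changed no other call. Between groups, same-numbered samples had correlations of deviations from −0.63 to 0.72, so a number marks no pair of mice there. With 3 samples per group and SEs up to 0.64 in the eye cup comparisons of 2 groups and up to 0.89 in the interaction there, changes of the size seen in the retina could be missed there.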

Other observations

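Gapdh, a glycolytic gene often used as a reference and chosen here after its values were seen, was uneven within every group of retinas. It ran from 8.63 to 321 CPM over the 12 retinas (median 145 CPM) and from 5.87 to 502 CPM over the 12 eye cups. In untreated wildtype retinas alone it ran from 8.63 to 270 CPM, while Eno1, a later enzyme of the same pathway, ran from 2956 to 3476 CPM in the same libraries. Gapdh has many near-identical pseudogene copies, and how the counting treated reads that match several copies is not given in the sources used here.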
